A study of Mus musculus with 4 samples.

Results

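The genes described here are 10 mouse genes of alternative macrophage activation and interleukin 4 (IL4) signalling: Il4ra, Stat6, Klf4, Irf4, Mrc1, Arg1, Chil3, Retnla, Mgl2 and Clec7a. They were followed through the peak lists of 2 libraries in which RNA was co-precipitated with IGF2BP2, which binds RNA and is counted among the readers of the m6A mark, from bone-marrow-derived macrophages (BMDMs). A peak belonged to a gene when the authors named that gene for it and did not mark it as antisense. By this rule the 10 genes, of 55536 in the annotation, held 38 of 15511 peaks in replicate 1 and 50 of 22570 peaks in replicate 2. The study has 4 samples, of which 2 are IGF2BP2 immunoprecipitates and 2 are inputs, and the inputs were not analysed here. The labels give the cells as mouse BMDMs and state no strain, genotype, age or cytokine treatment, nor whether the replicates were separate cultures or animals. They name an IGF2BP2 antibody in one field and a monoclonal Flag antibody in another, so the bait is given here as labelled. The title of the series asks how IGF2BP2 bears on macrophage activation through TSC1 and PPARγ.

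IL4 binds a receptor whose alpha chain is the product of Il4ra. The receptor recruits Janus kinases that phosphorylate STAT6, which then enters the nucleus and switches on genes of the alternative programme together with factors such as IRF4 and KLF4. The markers of that programme include Mrc1, an endocytic mannose receptor, Arg1, the arginase that breaks down arginine, the secreted proteins made from Chil3 and Retnla, and the lectin made from Mgl2. Clec7a makes dectin-1, a receptor for fungal beta-glucans that is found on the same cells. IGF2BP proteins are known for binding target mRNAs, many of them m6A-modified, and for stabilising them. The m6A mark is often placed on the A of the letters GGAC.

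The sequences below are a selection from the places that both libraries covered. For each of the 5 genes with overlapping peaks, the stretch shared by its strongest pair within 1 coding exon is shown. The 3 peaks with the same ends in both libraries follow for Mrc1 (exons 5 and 28) and Stat6 (exon 10). The last is the peak of Irf4, which alone among the 4 genes with a peak in a single library had a wholly coding one. All are printed 5′ to 3′ on the gene's strand, from GENCODE release M21 transcripts on GRCm38, and capitals mark GGAC.
Mrc1 exon 9: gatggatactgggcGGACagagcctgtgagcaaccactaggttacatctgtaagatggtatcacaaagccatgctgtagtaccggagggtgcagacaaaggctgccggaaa
Arg1 exon 3: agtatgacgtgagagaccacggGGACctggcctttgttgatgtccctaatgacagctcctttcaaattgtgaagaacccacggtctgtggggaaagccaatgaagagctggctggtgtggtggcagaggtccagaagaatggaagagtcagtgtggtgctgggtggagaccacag
Il4ra exon 11: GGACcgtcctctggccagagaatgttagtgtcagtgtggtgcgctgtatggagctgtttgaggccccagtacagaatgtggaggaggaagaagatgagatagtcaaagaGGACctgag
Stat6 exon 9: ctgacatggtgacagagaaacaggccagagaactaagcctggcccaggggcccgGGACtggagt
Chil3 exon 6: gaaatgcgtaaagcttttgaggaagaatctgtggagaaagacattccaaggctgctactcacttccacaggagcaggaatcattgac
Mrc1 exon 5: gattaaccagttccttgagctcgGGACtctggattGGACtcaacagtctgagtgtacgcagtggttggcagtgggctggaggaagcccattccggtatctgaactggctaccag
Mrc1 exon 28: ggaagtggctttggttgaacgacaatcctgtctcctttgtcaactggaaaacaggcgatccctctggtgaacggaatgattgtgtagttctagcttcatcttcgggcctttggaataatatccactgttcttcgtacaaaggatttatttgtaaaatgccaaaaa
Stat6 exon 10: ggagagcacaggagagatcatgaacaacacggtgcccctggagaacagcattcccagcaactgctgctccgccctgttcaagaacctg
Irf4 exon 7: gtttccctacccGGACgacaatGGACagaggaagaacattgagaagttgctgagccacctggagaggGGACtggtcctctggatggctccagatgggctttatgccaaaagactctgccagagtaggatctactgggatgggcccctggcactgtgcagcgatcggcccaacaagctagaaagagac
The Mrc1 stretches lie on the plus strand at chr2:14271264-14271374 (exon 9), with 1 GGAC, at chr2:14257004-14257117 (exon 5), with 2, and at chr2:14328420-14328584 (exon 28), with 0. The Arg1 stretch is on the minus strand at chr10:24920623-24920797 and holds 1 GGAC. The Stat6 stretches are on the plus strand at chr10:127652316-127652379 (exon 9), with 1, and at chr10:127652985-127653072 (exon 10), with 0. The Il4ra stretch is on the plus strand at chr7:125575667-125575784 and holds 2. The Chil3 stretch is on the minus strand at chr3:106155706-106155792 and holds 0, and the Irf4 peak is on the plus strand at chr13:30757535-30757721 and holds 3.

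Of the 10 genes, 5 had a peak in both libraries, namely Mrc1, Arg1, Stat6, Il4ra and Chil3, and in each of these 5 at least 1 peak overlapped between the libraries by 1 bp or more on the same strand. Across protein-coding genes, 17.0% had a peak in both libraries, 31.6% had one in 1 or both libraries and 9.04% had overlapping peaks. Retnla and Irf4 had a peak in replicate 1 only, Klf4 and Clec7a in replicate 2 only, and Mgl2 had no listed peak. The genes were chosen with results of these data known, so these counts are a description and not evidence that the programme as a whole was bound. No input or expression value was set against them here, and any use of the inputs in making the peak lists is not given. A gene's tags may therefore reflect binding, abundance of its RNA, or both, and these cannot be told apart here.

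The lists differ in depth. Replicate 1 held 189393 tags in peaks and replicate 2 held 324456, a ratio of 1.71, and the weakest listed peak had 3 tags in each. A gene without a peak can therefore still have tags below what was listed. Cell type markers were looked up in the same lists. Of 10 macrophage markers, 6 (Mrc1, Csf1r, Adgre1, Ctss, Itgam and Mertk) had a peak in both libraries. Cd68 had 88 tags in replicate 2 only, Fcgr1 had 4 tags in replicate 1 only, and Lyz2 and Cd14 had no peak in either. The 10 together held 2755 tags in replicate 1 and 4848 in replicate 2. Of these, 1030 and 1880 were of Mrc1, itself one of the genes described here. Of 5 T cell markers only Cd3e had a peak, with 3 tags in replicate 1, and of 5 neutrophil markers only Mpo did, with 10 tags in replicate 2. None of the 4 B cell, 4 dendritic cell, 4 mast cell and basophil, 4 erythroid or 4 fibroblast markers had a peak.

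**Figure D1:**
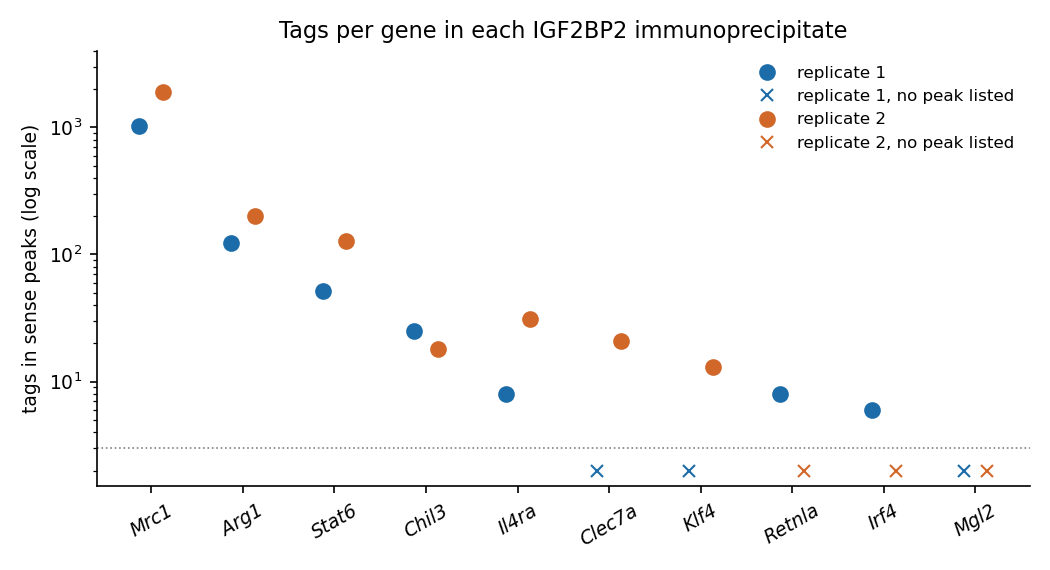
Tags in sense peaks (log scale) of each of the 10 genes in replicate 1 (blue) and replicate 2 (orange) of the IGF2BP2 immunoprecipitates. Crosses mark a library with no listed peak, drawn under the dotted line at 3 tags, the lowest count of any peak, and Mrc1 stands above every other gene in both libraries.

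Il4ra, the gene of the receptor chain that binds IL4, had few tags in either library. It had 8 tags in 1 peak in replicate 1 and 31 tags in 4 peaks in replicate 2. Its largest exon, exon 11 of 11, was the place found in both. There the coding sequence held 8 tags at chr7:125575524-125575784 in replicate 1 and 8 tags at chr7:125575667-125575888 in replicate 2. The overlap of 118 nt is the Il4ra sequence shown above, and the summits were 57 nt apart. The other 3 peaks were found in replicate 2 alone and lay in untranslated sequence. One had 5 tags in exon 1 and another had 10 tags and covered exon 2 from its first base to its last, both in the 5′ UTR. The third had 8 tags in the 3′ UTR at chr7:125577711-125577924. Exons 3 to 10 had no peak in either library. Il4ra ranked low by tags in replicate 1, where 35.7% of genes with a sense peak had fewer, and higher in replicate 2, where 70.5% had fewer.

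Stat6, the transcription factor activated by that receptor, had 52 tags in 6 peaks in replicate 1 and 128 tags in 9 peaks in replicate 2. Peaks overlapped at 4 places, at exons 9, 10, 11 and 21 of 22, and these were all mainly coding sequence. At exon 9 there were 8 tags in replicate 1 and 18 in replicate 2. At exon 10 there were 10 and 14 tags, and both peaks were exactly the 88 nt of that exon, the exon 10 sequence printed above. At exon 11 there were 9 and 11 tags, and at exon 21 there were 12 and 8. Thus 3 of the 4 shared places had more tags in replicate 2, the library with more tags in its listed peaks.

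The rest of the Stat6 peaks were seen in 1 library each. Replicate 1 alone had 7 tags at exon 6 and 6 tags in the 3′ UTR at chr10:127660705-127660906. Replicate 2 alone had 9 tags at exon 7, 21 tags on the whole of exon 8, 20 tags over exons 12 and 13 and 13 tags over exons 18 and 19. It also had 14 tags in the 3′ UTR at chr10:127660073-127660453, which did not reach the 3′ UTR peak of replicate 1. In exons 6 to 13 every exon therefore had a peak in at least 1 library, whereas exons 1 to 5, 14 to 17 and 20 had none in either. Peaks covered 18.8% of the Stat6 mRNA in replicate 1 and 43.7% in replicate 2.

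The 2 transcription factors that act beside STAT6 had 1 peak each, in different libraries. Irf4 had 6 tags in replicate 1 at chr13:30757535-30757721, wholly within exon 7 of 9 and wholly coding. Klf4 had 13 tags in replicate 2 at chr4:55531086-55531349, wholly within intron 2, so it covered no base of the spliced transcript. Neither peak had a partner in the other library. For Irf4, with 6 tags, and Klf4, with 13, a single library is thus the whole of the data.

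Mrc1 was in another range from the other 9 genes. Its 19 peaks in replicate 1 held 1030 tags and its 27 peaks in replicate 2 held 1880 tags. These were 0.544% of all tags in peaks in replicate 1 (95% exact binomial interval 0.511 to 0.578%) and 0.579% in replicate 2 (0.554 to 0.606%). Its rank by tags was 7 among 4962 genes with a sense peak in replicate 1 and 6 among 6070 in replicate 2. Mrc1 alone held 82.3% and 82.1% of the tags of all 10 genes, so any tag-weighted statement about the set is largely a statement about Mrc1. The intervals cover counting error only, since PCR copies could not be separated from independent molecules here. Whether they were removed before peaks were called is not known here.

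The Mrc1 peaks followed its exons. The gene runs over 102.7 kb at chr2:14229392-14332057 on the plus strand and has 30 exons in a 5374 nt mRNA. In replicate 1, 17 of the 30 exons were touched by a peak, and in replicate 2 the same 17 and exons 17, 18, 20, 27 and 29 were. Exons 11, 12, 14, 15, 16, 22, 23 and 26 had none in either library. Each exon-touching peak reached 1 exon, and its tags are given under that exon, although most such peaks also covered intron and the tags of the 2 parts were not separated. All of exons 1 to 10 had a peak in both libraries, and their peaks held 594 tags in replicate 1 and 936 in replicate 2. Exons 11 to 20 had peaks on 2 exons with 127 tags in replicate 1 and on 5 exons with 301 tags in replicate 2. Exons 21 to 30 had peaks on 5 exons with 220 tags and on 7 exons with 447 tags. These groups hold 1755, 1228 and 2391 nt of exon, and the peaks counted here cover flanking intron besides, so these are tags per group of exons and not per exon base.

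The strongest Mrc1 places were largely the same exons in both libraries. At exon 8 there were 108 tags in replicate 1, its highest, and 141 in replicate 2. At exon 13 there were 103 tags in replicate 1 and 148 in replicate 2, its highest. At exon 9, printed above, there were 77 and 145 tags, at exon 25 there were 86 and 106, and at exon 2 there were 82 and 121. An exception was exon 27, where replicate 2 had 124 tags on exactly the 114 nt of the exon and replicate 1 had no listed peak. The long last exon, of 1136 nt and mostly 3′ UTR, had only 23 and 26 tags, in its coding start. No Mrc1 peak in either library was mainly 3′ UTR.

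**Figure D2:**
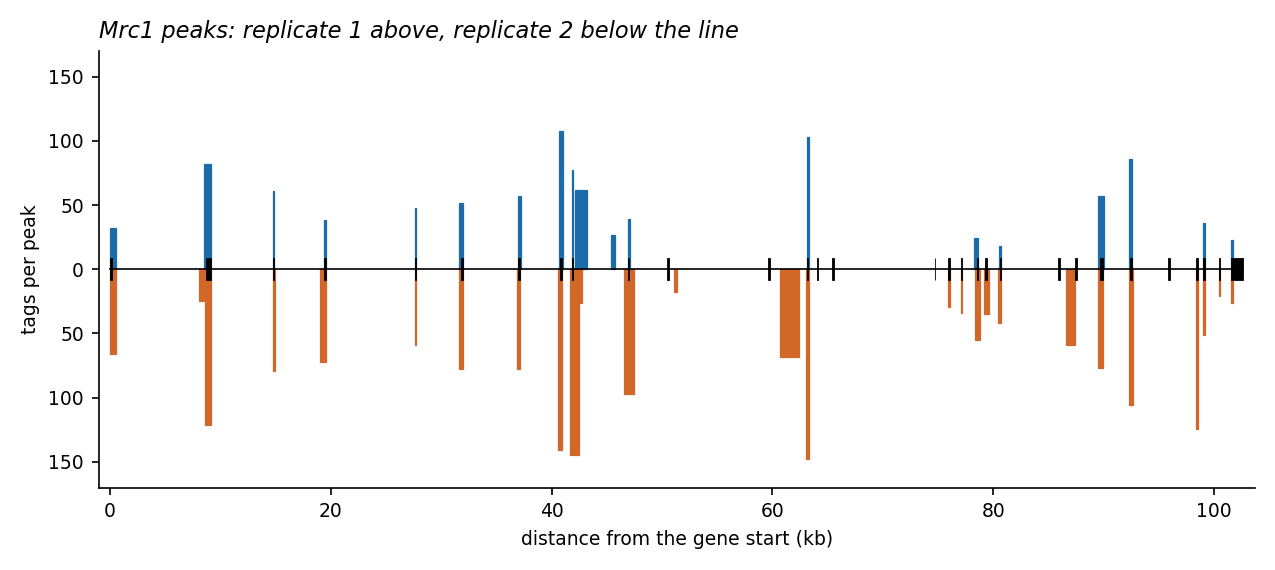
Peaks along Mrc1 by distance from the gene start in kb, with tags per peak in replicate 1 above the line (blue) and in replicate 2 below it (orange); bar width is the peak's length and black boxes are exons. Peaks sit on all of the first 10 exons in both libraries, and the highest bars are at exon 8 in replicate 1 (108 tags) and exon 13 in replicate 2 (148 tags).

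Although exons marked the places, much of the covered Mrc1 sequence was intronic. In replicate 1, 6 Mrc1 peaks lay wholly in an exon (283 tags), 11 covered an exon and flanking intron (658 tags) and 2 lay wholly in an intron (89 tags). In replicate 2 these numbers were 6 peaks (315 tags), 16 peaks (1369 tags) and 5 peaks (196 tags). Peaks that covered both exon and intron thus held 63.9% of the gene's tags in replicate 1 and 72.8% in replicate 2, and wholly intronic peaks held 8.64% and 10.4%. By length, 56.5% of the covered bases were intron in replicate 1 and 70.2% in replicate 2. When each peak is given the single region that covers most of it, 7 of 19 Mrc1 peaks are intronic in replicate 1 and 16 of 27 in replicate 2. The median Mrc1 peak was 238 nt long in replicate 1 and 358 nt in replicate 2. Exon 9 shows how far one place can differ. Its peak was the 111 nt exon and nothing else in replicate 1, and 848 nt with 87% intron in replicate 2.

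Some of the wholly intronic Mrc1 peaks had a partner in the other library and some had none. Replicate 1 had 62 tags at chr2:14271484-14272613 and 27 tags at chr2:14274788-14275142, both in intron 9, the second without a partner. Replicate 2 had 26 tags in intron 9 at chr2:14271905-14272185, inside the first of these. Its other 4 were 25 tags in intron 1, 18 in intron 11, 68 in intron 12 over 1705 nt and 59 in intron 22. The intron 1 peak shared 52 nt with the replicate 1 peak that covered exon 2 and flanking intron. Introns 11, 12 and 22 each border at least 1 exon that had no peak in either library, and none of these 3 peaks had a partner in replicate 1.

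Of the Mrc1 peaks, 18 of 19 in replicate 1 and 19 of 27 in replicate 2 overlapped a peak of the other library, in 20 pairs. In 18 of the 20 pairs replicate 2 had more tags, as it did in 3819 of the 5130 pairs of all genes. The ratio of replicate 2 to replicate 1 ran from 0.305 to 2.49 with a median of 1.43, beside a median of 1.40 over the pairs of all genes. The 2 pairs with fewer tags in replicate 2 were both made by a replicate 1 peak that faced 2 peaks in replicate 2. In 2 pairs, at exons 5 and 28, the peaks had the same first and last base in both libraries, and these bases were those of the exon. Identical ends were found in 3 of the 32 pairs of all 10 genes and in 566 of the 5130 pairs of all genes, so they were no more frequent here. Exon 5 had 48 and 59 tags, and exon 28, at chr2:14328420-14328584, had 36 and 51.

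Arg1, the arginase gene, had the next most tags. It had 122 tags in replicate 1 and 199 in replicate 2, in 6 peaks each. These were 0.0644% and 0.0613% of the tags in peaks, with intervals of 0.0535 to 0.0769% and 0.0531 to 0.0705% that overlap. In replicate 1, 95.4% of genes with a sense peak had fewer tags, and 95.5% had fewer in replicate 2. Arg1 is on the minus strand at chr10:24915221-24927484, with 8 exons in a 1477 nt mRNA. Peaks covered 45.8% of that mRNA in replicate 1 and 41.4% in replicate 2.

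Arg1 exon 3 was the strongest place in both libraries, with 48 tags in replicate 1 and 67 in replicate 2. The replicate 1 peak was the whole 175 nt exon, and the replicate 2 peak started at the same splice site and ran 253 nt, with 31% intron. Exon 2 had 21 and 44 tags, in peaks that the authors labelled 64% and 78% intron. At the midpoint of both peaks the annotation used here has a noncoding exon of another Arg1 transcript. Exon 6 had 14 and 27 tags, exon 7 had 12 and 23, and exon 4 had 14 and 15. All 5 shared places had more tags in replicate 2, with ratios from 1.07 to 2.10. The transcript ends differed between the libraries. Exon 1 had a peak in replicate 2 alone, with 23 tags at chr10:24927312-24927456, mainly 5′ UTR. Exon 8, the last, had one in replicate 1 alone, with 13 tags at chr10:24915538-24915789, of which 67% was coding and 29% 3′ UTR. Exon 5 had no peak in either.

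Chil3, which makes the chitinase-like protein Ym1, was the only gene of the 5 with fewer tags in replicate 2. It had 25 tags in 4 peaks in replicate 1 and 18 tags in 2 peaks in replicate 2. Exon 6 had 9 tags in each library, and exon 5 had 5 in replicate 1 and 9 in replicate 2, with the summit at the same base. Replicate 1 also had 6 tags in intron 10 and 5 tags in intron 4, with no partner in replicate 2. The exon 5 peaks are uncertain as to gene. In the replicate 1 and replicate 2 peaks, 95.1% and 93.9% of all runs of 25 nt also occur in Chil4, a close relative. For the exon 6 stretch printed above, 42.9% occur in Chil4 or Gm6522. Chil4 itself had no peak. In the other member peaks within 1 exon no run of 25 nt was shared with another gene, except for 0.28% of those in the replicate 2 3′ UTR peak of Stat6.

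**Figure D3:**
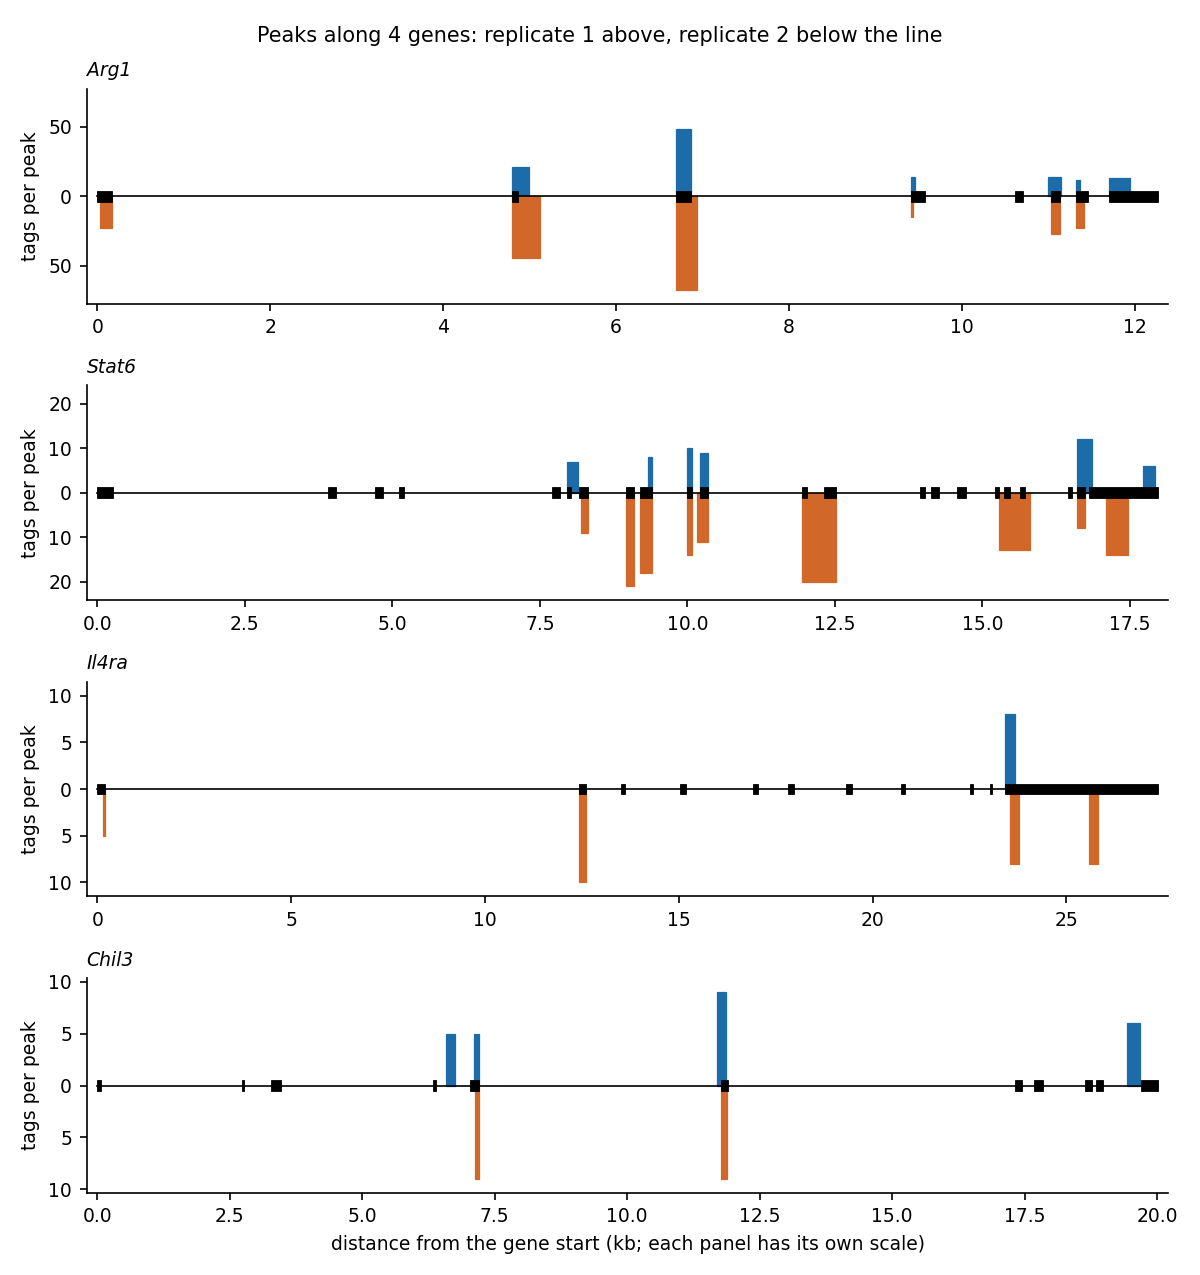
Peaks along Arg1, Stat6, Il4ra and Chil3 by distance from the gene start in kb, in the direction of transcription, with tags per peak in replicate 1 above each line (blue) and replicate 2 below (orange). Black boxes are exons; exon 3 of Arg1 carries the highest bar of the gene in both libraries (48 and 67 tags), while Il4ra and Chil3 stay at 10 tags or fewer per peak.

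The remaining 3 markers had 1 peak or none. Retnla, whose product is the secreted protein RELM-alpha, had 8 tags in replicate 1 at chr16:48844174-48844317 in exon 4 of 4, of which 89% was coding. Clec7a had 21 tags in replicate 2 at chr6:129461593-129461830, which the authors placed in 3′ UTR. That peak lies 2 nt from the annotated end of the gene and beyond the end of the principal transcript, and the annotation types this gene as a polymorphic pseudogene. Mgl2, at chr11:70130329-70137550 with 10 exons, had no listed peak on either strand.

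Set against transcript length, the order of the genes was steadier at the top than below. Mrc1 had 192 tags per kb of mRNA in replicate 1 (interval 180 to 204) and 350 in replicate 2 (334 to 366), with tags of intron-reaching peaks included. Arg1 followed with 82.6 (68.6 to 98.6) in replicate 1 and 135 (117 to 155) in replicate 2. Both intervals lie below those of Mrc1 and above those of every other gene in the same library. In replicate 1 the next were Chil3 with 16.2 tags per kb (10.5 to 24.0), Stat6 with 13.8 (10.3 to 18.1) and Retnla with 13.4 (5.77 to 26.3), whose intervals overlap. The Chil3 value there includes wholly intronic peaks, which held 44% of its tags and cover no base of the mRNA. Il4ra with 1.52 (0.657 to 2.999) and Irf4 with 1.26 (0.462 to 2.74) were lowest and also overlap. In replicate 2 Stat6 had 33.9 tags per kb (28.3 to 40.3), Chil3 11.7 (6.93 to 18.5) and Il4ra 5.90 (4.01 to 8.37). There Stat6 stood apart from Chil3, and the intervals of Chil3 and Il4ra overlap. Klf4 and Clec7a are given no value per kb, since their only peaks cover no base of the principal mRNA. The per-gene ratio of replicate 2 to replicate 1 tags was 3.88 for Il4ra, 2.46 for Stat6, 1.83 for Mrc1, 1.63 for Arg1 and 0.72 for Chil3, around the 1.71 of the libraries.

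Over the 10 genes, 30 of 38 peaks in replicate 1 (78.9%) and 31 of 50 in replicate 2 (62.0%) overlapped a peak of the other library, in 32 pairs. For all sense peaks these shares were 36.9% and 25.2%. Mrc1 alone gave 18 of the 30 overlapping member peaks in replicate 1 and 19 of the 31 in replicate 2. Member peaks also had more tags, with medians of 22 and 26.5 per peak against 7 and 8 over all peaks, and without Mrc1 the medians were 9 and 14. The part of peak strength in the higher overlap was not tested. The median tag ratio over the pairs was 1.41, close to 1.40 over the 5130 pairs of all genes. Summits were a median of 13 nt apart in member pairs and 30 nt apart in all pairs.

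**Figure D4:**
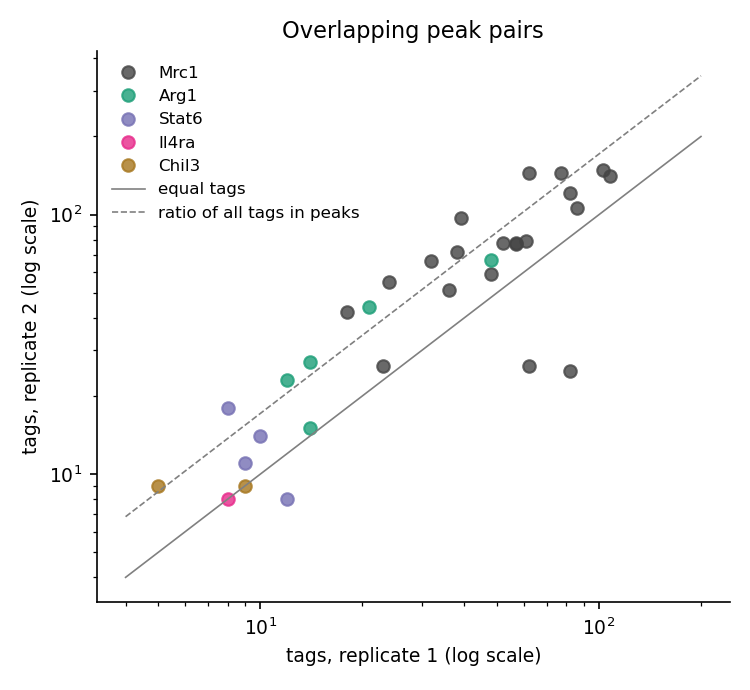
Tags of the 32 overlapping peak pairs, replicate 1 on the x axis and replicate 2 on the y axis (both log scale), coloured by gene. The solid line marks equal tags and the dashed line the 1.71 ratio of all tags in peaks; 27 of the 32 pairs have more tags in replicate 2, as do 3819 of the 5130 pairs of all genes.

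Coding sequence was the most frequent region of member peaks. By the region that covers most of a peak, 26 of 38 member peaks in replicate 1 were coding (68.4%, interval 51.3 to 82.5%) and 25 of 50 member peaks in replicate 2 were (interval 35.5 to 64.5%). Over all sense peaks the shares were 46.8% and 44.3%. Introns held 28.9% of member peaks in replicate 1 (15.4 to 45.9%) and 38.0% in replicate 2 (24.7 to 52.8%), against 37.7% and 40.8% of all sense peaks. Without Mrc1 the intron shares were 21.1% of 19 peaks and 13.0% of 23 peaks. There was 1 member peak in 3′ UTR in replicate 1 and 3 in replicate 2, and 0 and 3 in 5′ UTR. As shares, 2.63% and 6.00% of member peaks were in 3′ UTR, against 12.3% and 11.6% of all sense peaks, while 5′ UTR held 2.65% and 2.64% of all sense peaks. Peaks that covered exon and intron at once made up 44.7% and 44.0% of member peaks, against 19.5% and 22.3% of all sense peaks, and 31.6% and 26.1% without Mrc1. These shares over members describe peaks of a few genes, which are not independent of each other.

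**Figure D5:**
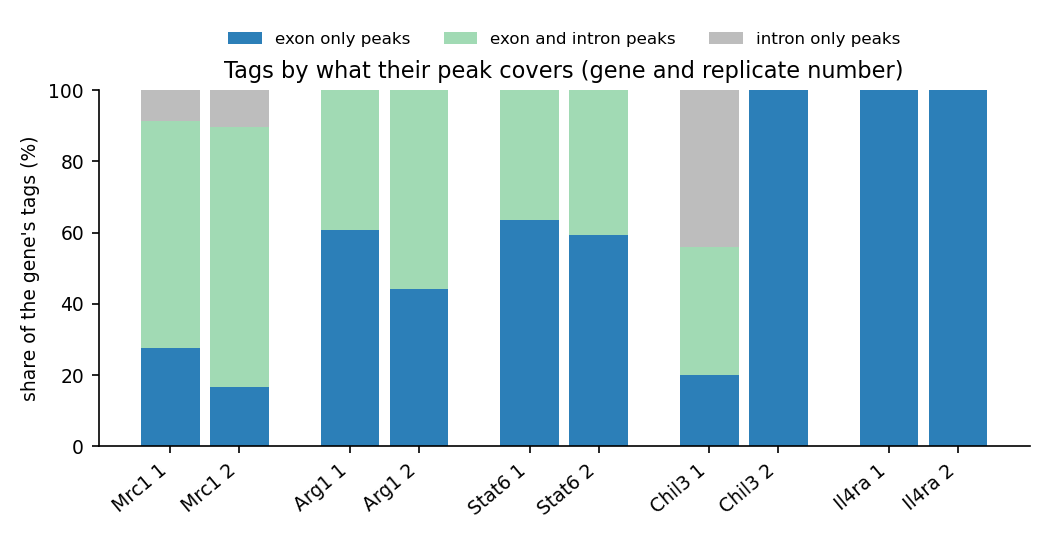
Share of each gene's tags (%) in peaks that lie wholly in an exon (blue), cover exon and intron (green) or lie wholly in an intron (grey), for the 5 genes with peaks in both libraries, replicate 1 and replicate 2 side by side. Mrc1 has most of its tags in peaks that cover both (63.9% and 72.8%), and all Il4ra tags are in exon-only peaks.

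Peak ends often fell exactly on splice sites. At least 1 end did so in 24 of 38 member peaks in replicate 1 (63.2%) and 27 of 50 in replicate 2 (54.0%), against 42.4% and 41.6% of all sense peaks with an annotated gene. Both ends did in 8 of 38 and 11 of 50 member peaks, against 2193 of 13499 and 3150 of 19524 of all sense peaks. For Mrc1 the numbers were 12 of 19 and 10 of 27, and for the other genes 12 of 19 and 17 of 23. The lowest of these shares, 37.0% for Mrc1 in replicate 2, was in the library where 70.2% of the covered Mrc1 bases were intron. The sources used here do not say whether gaps of spliced reads were left out when peaks were built.

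GGAC was counted per peak and per length. Of peaks lying wholly in 1 exon, 9 of 17 member peaks in replicate 1 (52.9%, interval 27.8 to 77.0%) and 10 of 21 in replicate 2 (47.6%, 25.7 to 70.2%) held GGAC on the transcript strand. Over all genes 51.8% of 6475 such peaks and 51.6% of 8549 held it, shares within the members' intervals. Per kb of such peaks there were 5.98 GGAC in members and 4.84 over all genes in replicate 1, and 7.05 and 4.72 in replicate 2. Without Mrc1, 6 of 11 and 9 of 15 member peaks held it. Median lengths were 144 nt for members and 146 nt for all in replicate 1, and 114 and 151 nt in replicate 2. A match is a run of letters and not a measured m6A site, and the letters were not sought in peaks that reach introns.

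Beyond the 10 genes, 60 further genes of the programme were looked up in the same lists. Of 23 genes of IL4 receptors and signalling, 9 had a peak in both libraries, 2 in replicate 1 only, 3 in replicate 2 only and 9 in neither, and in 5 the peaks overlapped. The highest by mean rank was Jak1, a kinase on the receptor, with 72 tags in replicate 1 and 229 in replicate 2. Next were the adaptor Grb2 (39 and 135), the phosphatases Ptpn11 (20 and 88) and Ptpn1 (38 and 42, with no overlapping peak) and the inositol phosphatase Inpp5d, or SHIP1 (21 and 70). Single-library members were the signalling inhibitors Cish (5 tags) and Socs3 (4 tags) in replicate 1, and Il13ra1 (6 tags), Jak3 (6 tags) and Stat5b (18 tags) in replicate 2. Il13ra1 is the chain that pairs with that of Il4ra in the type II receptor.

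Of 13 regulators of the programme, 9 had a peak in both libraries, 7 of them overlapping, and 3 had none. The acetyltransferase gene Crebbp had 51 tags in replicate 1 and 101 in replicate 2. The transcription factors Klf6 (18 and 140), Egr2 (18 and 103, with no overlapping peak) and Myc (21 and 22) and the histone demethylase Kdm6b (20 and 33) also had both. Nfil3 had 6 tags in replicate 1 only. Klf6 and Egr2 had far more tags in replicate 2 than the ratio of the libraries, and Myc had about the same in both.

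Of 24 other markers, 7 had a peak in both libraries, 6 of them overlapping, and 14 had none. Stab1, a scavenger receptor of tissue macrophages, was the strongest with 552 tags in replicate 1 and 926 in replicate 2. Far below were the transglutaminase Tgm2 (79 and 84), the lectin Clec10a (38 and 51), the fibronectin gene Fn1 (21 and 70) and Pdcd1lg2, which makes the checkpoint ligand PD-L2 (28 and 39). Cdh1 had 16 tags in replicate 1 only, and Ccl24 and Cd200r1 had 5 and 18 tags in replicate 2 only. Clec10a is the closest relative of Mgl2, and it had peaks where Mgl2 had none. In all 3 lists together, 25 of 60 genes had a peak in both libraries and 18 of 60 had overlapping ones, beside the 17.0% and 9.04% of protein-coding genes given above.

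The genes most like Mrc1 in tags and in the intronic share of their tags, by Euclidean distance over these 4 values among 3739 genes with a peak in both of the 2 libraries, were Csf1r, Dnmt3a and Grn. Csf1r, the CSF1 receptor of macrophages, had 932 tags in replicate 1 and 1421 in replicate 2, with 52.6% and 76.4% of them in peaks classed as intronic. Dnmt3a, a DNA methyltransferase, had 810 and 948 tags with 31.4% and 61.2%. Grn, the progranulin gene, had 543 and 851 tags with 31.1% and 50.6%. Mrc1 itself had 35.1% and 62.8%. In all 4 genes the intronic share was higher in replicate 2, which follows from choosing them by these values.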

How the data were processed

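RNA co-precipitated with IGF2BP2 from BMDMs was sequenced in 2 immunoprecipitate libraries, and each came with its own peak list. The submitters' processing notes name bcl2fastq, TopHat2 and the build GRCm38. Per the labels' protocols, amplified products of 200 to 500 bp were purified. The peak caller, its threshold, strand handling and any use of the inputs is not given in the sources used here. The authors deposited, per the file headers, for each peak a tag count, whole and unnormalized, and a maximum height, a coverage signal used here only in an alternative. They also deposited how much of a peak lay in exon classes and introns, with its gene's identifier, which was matched without its version to GENCODE release M21. No library totals, input values, fold enrichments or p-values entered.

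Deposited starts count from 0. As written, 10 of 13499 starts in replicate 1 and 23 of 19524 in replicate 2 fell on the first base of an exon, and 3939 and 5622 did after 1 was added, so 1 was added to starts and summits. Tags were summed per gene over its sense peaks. Exons are those of the principal transcript (APPRIS rank, then coding length). Peaks overlapped at 1 bp or more on the same strand in the same gene. Shares carry exact Clopper-Pearson 95% intervals, for counting error only. Intervals of tags per kb are those of the tag share, rescaled by all tags in peaks and mRNA length. There was no test between groups, since only the immunoprecipitates were analysed. The overlap routine was checked on simulated peaks. Python 3.11.15, numpy 2.4.6, pandas 2.3.3, scipy 1.17.1 and matplotlib 3.10.9 were used.

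The 10 genes and all lists were chosen with earlier results of these data known. All 10 are named. Of each further list, the text names the 5 genes with the highest mean rank of tags among those with a peak in both libraries, and single-library genes where they were 5 or fewer. For Mrc1, the 3 nearest genes by tags and intronic tag share are named. Other genes in the text were chosen after their values were seen. Alternatives were other overlap rules, a tag minimum of 6, the stronger 50% of each list, maximum height, mitochondrial and AY036118 peaks left out, region by midpoint or by tags, antisense peaks counted, peak ends extended by 50 nt, each library alone and, added after seeing the data, starts as deposited.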

Additional observations from a re-analysis of the deposited data

Results flagged for a closer look

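Peaks marked by the authors as antisense to a gene entered none of the counts above, and 3 of them fall on the genes described here. Mrc1 had 1 in replicate 1, with 6 tags on the minus strand at chr2:14288987-14289099, and 1 in replicate 2, with 5 tags on the minus strand at chr2:14268148-14268239. Klf4 had 1 in replicate 2, with 4 tags on the plus strand at chr4:55531969-55532019. They are named here because signal was present in data that entered only the alternative with antisense peaks counted. The Mrc1 peaks lie apart from each other, so none of the 3 was seen in both libraries. Each is close to the lowest listed count of 3 tags.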

How the results depend on the processing

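Of 84 alternative values, 69 stayed within the interval of a reported share or within 1.5 times of a reported count, and 15 did not. The intron share of member peaks in replicate 2, 38.0%, was 24.0% by the annotation at the peak midpoint, 54.6% weighted by tags and 13.0% without Mrc1. It thus depends both on how the region of a peak is taken and on a single gene. The members' share of all tags, 0.661% and 0.706%, became 0.750% and 0.754% without mitochondrial and AY036118 peaks and 0.733% and 0.755% over peaks of at least 6 tags, since the total is then smaller. The other 8 were tag shares of Mrc1, Arg1 and Il4ra under these settings or with maximum height. Genes with a peak in both libraries numbered 5, against 7 in either library alone, and 25 further genes, against 29 to 30. With overlap of at least 50% of both peaks 4 genes remained and Il4ra was lost; with starts as deposited it was 5. No paired analysis was possible because only 1 group was analysed. The depth of the libraries is unknown, tag counts under 10 rest on few molecules at most, and a gene without a peak may have had tags under the lowest listed count of 3.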
